A study of Homo sapiens with 124 samples.

Results

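Chromosome ends were examined for contact with the nuclear lamina in single human cells, as the usable 100 kb bins within 2 Mb of the last usable bin of each chromosome, and of its first usable bin where that bin starts below 5 Mb. Usable bins are those with numbers for all cells that are not 0 throughout. Chromosomes X and 8 and the sequence 22:9 were left out. The rule gave 36 ends, of which 16 were first ends and 20 were last ends, with 718 of the 26426 usable bins. A first end lies on the short arm (p) and a last end on the long arm (q). Chromosomes 13, 14, 15 and 21 entered with their long-arm end only, because their usable bins begin beyond 5 Mb.

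The cells were of KBM7, a near-haploid line from a human chronic myeloid leukaemia, and all belonged to the haploid clone 14, so that each autosomal end measured here is present in a single copy before replication. They carried Dam-LaminB1, the adenine methyltransferase Dam joined to a lamina protein, and the Fucci cell cycle reporter. The fusion was stabilised with 0.5 nM Shield1 over 15 h, and the cells were sorted from the smallest 2% of those positive for both reporter colours. There was 1 group, of 124 samples, and 118 cells had values. The samples with the numbers 33, 34, 44, 86, 95 and 120 were not analysed here. No untreated or other control group entered, and all cells come from a single clone, so the spread given is that between cells of this clone. The labels name no cultures, so cells were not treated as replicates and no p-value is given.

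The nuclear lamina is a protein mesh under the inner nuclear membrane. Large stretches of the genome that hold few genes and little transcription, known as lamina-associated domains, rest against it, whereas gene-rich stretches mostly lie inside the nucleus. Subtelomeres, the stretches next to the telomere repeats, are built from segmental duplications followed by unique sequence, and in human cells many of them are rich in genes and in CG dinucleotides. The end of 4q, which carries the D4Z4 repeat array with DUX4, is known to lie at the nuclear edge.

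The value of a bin is the ratio of observed to expected reads in a cell, and a value of at least 1 was taken as contact. The share of an end is the percentage of its bins in contact in a cell, and the contact frequency is, for each bin, how many percent of the cells had it in contact. Depth, as whole reads recovered from the ratios, ran from 28372 to 385661 reads per cell (median 135782.5). A value of 1 in the median bin equalled 1.17 to 15.9 reads, and under 3 reads in 14 cells. Cells with sample numbers 96 to 124 (n = 28) have more signal in rarely contacted bins than cells 1 to 94 (n = 90). That split came from an earlier look at these data and is not a grouping of the study, so values for both sets are given for the ends over 1%. A count of 0 among the 118 cells allows a contact frequency of up to 2.54%, taken as 3 cells of 118. The expected part of a bin, as far as the recovered steps show it, is given relative to the median bin, and a bin with a small expected part reaches a value of 1 with few reads and often has none.

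A genome of build hg19, on which the bins lie, was not used here, so no bin sequences are printed and genes were not placed in bins. RefSeq promoters of build GRCh38.p14 give instead a view of the sequence that leads the ends. Shown are the 250 bases before the start of the outermost named coding gene with a listed promoter at 3p, the end with the most contact, at 1q, and at 7p and 21q, which had no contact in any cell. An olfactory receptor gene further in at 1q is added because most of the outer genes listed there are of that family. Each runs 5′ to 3′ along its gene, with CG dinucleotides in capitals, and the coordinates are of GRCh38.p14 and cannot be set against the bins.
CHL1, chr3:197639-197888, plus strand: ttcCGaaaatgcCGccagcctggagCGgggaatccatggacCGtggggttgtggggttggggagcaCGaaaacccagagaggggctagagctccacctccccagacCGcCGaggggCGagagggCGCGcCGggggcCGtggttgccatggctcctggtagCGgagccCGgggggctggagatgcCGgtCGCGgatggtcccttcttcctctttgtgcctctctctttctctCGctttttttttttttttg
ZNF692, chr1:248859086-248859335, minus strand: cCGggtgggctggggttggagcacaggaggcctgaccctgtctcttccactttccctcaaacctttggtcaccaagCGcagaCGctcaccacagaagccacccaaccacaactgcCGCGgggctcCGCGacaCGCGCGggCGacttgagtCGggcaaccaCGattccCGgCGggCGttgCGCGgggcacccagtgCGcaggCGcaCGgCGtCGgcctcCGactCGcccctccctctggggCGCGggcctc
OR2T27, chr1:248655529-248655778, minus strand: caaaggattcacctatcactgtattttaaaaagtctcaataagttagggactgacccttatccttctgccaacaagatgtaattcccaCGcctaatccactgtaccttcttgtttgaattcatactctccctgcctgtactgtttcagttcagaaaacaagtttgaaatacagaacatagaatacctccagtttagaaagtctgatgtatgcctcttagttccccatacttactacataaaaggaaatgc
FAM20C, chr7:192321-192570, plus strand: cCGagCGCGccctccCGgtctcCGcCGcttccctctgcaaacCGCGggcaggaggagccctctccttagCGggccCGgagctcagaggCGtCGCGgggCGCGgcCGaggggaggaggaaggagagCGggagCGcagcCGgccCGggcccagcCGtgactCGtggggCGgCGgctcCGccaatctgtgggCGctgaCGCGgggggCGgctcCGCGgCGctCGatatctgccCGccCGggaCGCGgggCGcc
PRMT2, chr21:46635424-46635673, plus strand: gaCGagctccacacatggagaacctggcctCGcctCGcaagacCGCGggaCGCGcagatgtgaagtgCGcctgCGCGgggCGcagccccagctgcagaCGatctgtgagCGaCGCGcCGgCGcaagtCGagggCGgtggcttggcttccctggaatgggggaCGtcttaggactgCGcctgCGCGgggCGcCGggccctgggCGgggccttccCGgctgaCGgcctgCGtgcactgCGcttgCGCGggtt
CHL1, a neural cell adhesion gene at 3p, has 18 CG in these bases. ZNF692, a zinc finger gene at 1q, has 27, and OR2T27 has 1. FAM20C, a secreted kinase gene at 7p, has 38, and PRMT2, an arginine methyltransferase gene at 21q, has 32.

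Most chromosome ends had little contact with the lamina, and a few had a great deal. Averaged over the 36 ends, 9.60% ± 3.34 of the bins of an end were in contact per cell (SD between cells, n = 118), with a lowest cell at 3.89%, a median of 9.58% and a highest cell at 20.8%. Cells 1 to 94 had a mean of 8.60% ± 2.72, and cells 96 to 124 had 12.8% ± 3.14. On the same chromosomes, bins at 2 to under 10 Mb from an end had 24.4% ± 6.32 and bins at least 10 Mb from both ends 31.3% ± 5.24. The share at the ends was lower than in the interior in 118 of 118 cells, with a difference of -21.7 ± 3.68 percentage points. It was also lower than at 2 to under 10 Mb in 118 of 118 cells, by a difference of -14.8 ± 3.98 percentage points. Without 3p the mean over ends was 7.58% ± 3.21.

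Single bins showed the same split. Of the 718 end bins, 416 (57.9%) were in contact in no cell, where 22.3% of all usable bins were. At most 5% of cells had contact in 557 end bins (77.6%), against 38.8% of all usable bins. A contact frequency of at least 80% was reached by 16 end bins (2.23%), against 15.1% of all usable bins. Those 16 bins lay at 3 ends, with 12 at 3p, 2 at 1q and 2 at the first end of 9:22. The sequence 9:22 stands for the chromosome made by the Philadelphia translocation of this line, whose first end is that of 9p and whose last end is that of 22q, and its positions count along that sequence.

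By end, 5 of 36 had a mean contact frequency of at least 33%, 5 lay between 5% and 33%, 3 between 1% and 5%, and 23 under 1%. Among 1150 consecutive 2 Mb windows of the genome, 47.3% reached 33%, 24.5% were at most 5% and 15.2% were under 1%. The 26 ends at most 5% thus made up a larger part of the ends than such windows made up of the genome. The 6 highest ends held 6550 of the 8156 contacts at ends (80.3%), and the 10 ends over 5% held 95.0%. In all, 32 ends were lower than the interior of their own chromosome and 4 were higher, namely 3p, 1q, 18p and the first end of 9:22. Against the adjoining 2 to under 10 Mb, 31 ends were lower, and the 5 that were higher were 3p, 1q, 18p, 19p and 19q. The difference was 28.7 ± 17.0 percentage points at 3p, 7.34 ± 20.6 at 1q, 7.28 ± 16.1 at 18p and 2.00 ± 5.78 at 19q. At 19p it was only 0.0368 ± 1.47, and the end was higher in 7 cells and lower in 14. Without its outermost bin the share of 19p was 0.141%, under the 0.275% of its 2 to under 10 Mb. Against the interior, 18p was also close, at 1.78 ± 21.9, higher in 74 cells and lower in 44.

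**Figure D1:**
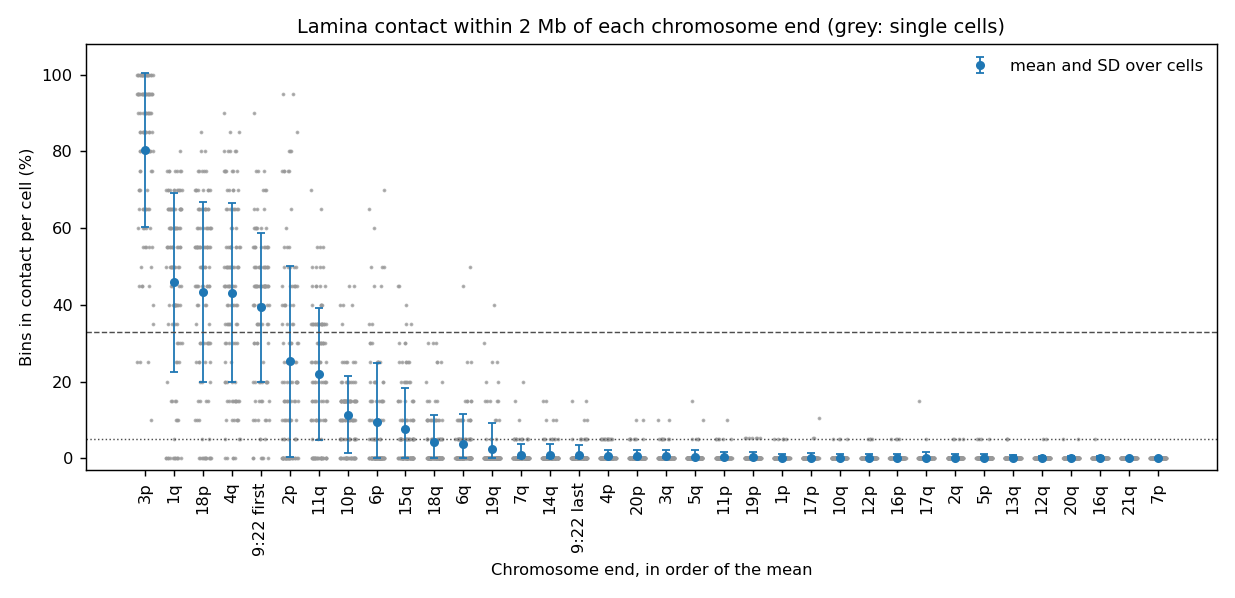
Share of 100 kb bins in contact (%, vertical axis) for each of the 36 chromosome ends in order of their mean (horizontal axis). Grey points are single cells, spread sideways at random, and blue points with bars are the mean and SD over 118 cells, with bars cut at 0; lines mark 33% (dashed) and 5% (dotted). The end of 3p has a mean of 80.4%, 4 ends lie between 39.4% and 45.8%, and 23 ends lie under 1%.

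The end of 3p stood first. It was in contact over 80.4% ± 20.0 of its bins, with a lowest cell at 10.0% (cell 58), a median of 85.0% and a highest value of 100.0% in 21 cells. Every one of the 118 cells had some contact there, and 106 had over 50% of its bins in contact. Cells 1 to 94 had 78.9% of its bins in contact and cells 96 to 124 had 85.2%. Of the 1150 windows of 2 Mb, 5.74% reached 80% and 4.96% had a higher mean than 3p. The lowest bin was the outermost, chr3:1-100000, in contact in 50 cells (42.4%, 95% exact interval 33.3 to 51.8), and its expected part was 0.0854 of that of the median bin. From there the frequency was 68.6% to 73.7% over the next 4 bins and 72.0% to 92.4% over the rest, with its highest value at chr3:1200001-1300000, in 109 cells (92.4%, 86.0 to 96.5). Apart from that bin, where few reads decide the value, contact was high over the whole stretch. In the 2 to under 10 Mb beyond, the share was 51.8% ± 14.7, and the interior of chromosome 3 had 36.1% ± 7.23. A sharp fall lay outside the 2 Mb, where the frequency went from 72.9% at chr3:3000001-3100000 to 18.6% in the next bin inward, with 64 cells in contact in the outer bin alone and 0 in the inner bin alone. The first 3 named genes RefSeq lists from this end, CHL1, CNTN6 and CNTN4, encode neural cell adhesion proteins.

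The next 4 ends had like levels. The end of 1q had 45.8% ± 23.3 of its bins in contact, from 0 in 13 cells through a median of 52.5% to 80.0% in cell 100. The end of 18p had 43.3% ± 23.5, from 0 in 13 cells through a median of 50.0% to 85.0% in cell 77. The end of 4q had 43.2% ± 23.2, from 0 in 5 cells through a median of 45.0% to 90.0% in cell 101. The first end of 9:22 had 39.4% ± 19.4, from 0 in 6 cells through a median of 45.0% to 90.0% in cell 108. Cells ranged widely at each of them, and all 4 ranges overlap almost fully. The end of 3p exceeded 1q in 110 of 118 cells, with a difference of 34.6 ± 24.1 percentage points. The order among the other 4 was not separated beyond the spread, since 1q was above 18p in 62 cells and below it in 44, and 18p was above 4q in 53 and below it in 56. At the first end of 9:22 the share was below that of 4q in 62 cells and above it in 49. Of the 2 Mb windows, 36.3% to 42.2% had a higher mean than these 4 ends, so their levels are high among ends and ordinary in the genome. For cells 1 to 94 against cells 96 to 124, the share was 43.2% and 54.5% at 1q, 42.0% and 47.7% at 18p, 39.9% and 53.9% at 4q, and 35.3% and 52.7% at the first end of 9:22.

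These 4 ends differed in where the contact lay. At 1q the outermost bin, with an expected part of 0.133, was in contact in 5 cells (4.24%) and the next in 0, after which chr1:249000001-249100000 was in contact in 53 cells (44.9%, 35.7 to 54.3). The frequency then climbed to 83.1% (75.0 to 89.3) at chr1:248200001-248300000, dipped to 30.5% in chr1:248000001-248100000 and returned to 67.8% and 72.0%. It dropped again to 0.847%, 1.69% and 0 in the 3 innermost bins. At that dip 55 cells were in contact in the bin just outside alone and 1 cell in the dip bin alone. Contact at 1q was therefore an island, with bare bins on either side. RefSeq lists ZNF692, ZNF672, SH3BP5L and LYPD8 outermost at 1q, and the next 6 genes, OR14I1, OR2T27, OR2T35, OR2T10, OR2T29 and OR2G6, are all olfactory receptor genes, which are silent in most cell types.

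At 18p the 3 outermost bins, the first with an expected part of 0.0759, were in contact in 8, 3 and 2 cells, the next 3 in 31 to 33 cells, and chr18:600001-700000 in 0 cells. From chr18:900001-1000000 inward the frequency rose to 55.9% (46.5 to 65.1) and stayed between 64.4% and 76.3% to the edge of the 2 Mb. The end thus had a weak outer island and a stronger inner stretch, parted by bins with almost no contact. The stretch went on to chr18:2400001-2500000, at 72.0%, next to a bin at 16.9%, with 65 cells in contact in the outer bin alone and 0 in the inner bin alone. Among the outermost genes RefSeq lists for 18p are TYMS, the thymidylate synthase gene needed by dividing cells, and ADCYAP1, which encodes a neuropeptide.

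At 4q contact increased inward in 2 waves. The outermost bins were in contact in 3, 5, 13 and 21 cells, and chr4:190500001-190600000 in 51 cells (43.2%, 34.1 to 52.7). A dip to 8.47% (4.14 to 15.0) followed at chr4:190300001-190400000, and further in the frequency went up to 72.0% (63.0 to 79.9) at chr4:189200001-189300000. The expected parts of the 3 outermost bins were 0.0253, 0.120 and 0.370 of the median bin, and how far this sets their low counts was not tested. Without bins of low expected part the share of 4q was 51.9%. The repeat array itself is not resolved in bins of 100 kb, and the bin outside the outermost usable one was not usable. DUX4, FRG2 and FRG1 are the outermost named genes RefSeq lists with a promoter there.

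The first end of 9:22 held a block with sharp edges. Its 2 outermost usable bins were in contact in 0 cells, and the next 7 in 3 to 36 cells. At positions 1100001 to 1200000 the frequency was 82.2% (74.1 to 88.6), in 97 cells, after 30.5% in the bin just outside. It stayed at 77.1% to 80.5% over the next 6 bins, and then was 68.6% at 1800001 to 1900000, 46.6% at 1900001 to 2000000, and 1.69% in the bin after that. At this last step 53 cells had contact in the outer bin alone and 0 in the inner bin alone. Contact then resumed further in, with 79.7% at 2900001 to 3000000, where 67 cells were in contact there and not in the bin just outside. RefSeq lists WASHC1, FOXD4, ZNG1A, DOCK8 and KANK1 outermost at this end. DMRT1, DMRT3 and DMRT2, transcription factor genes of the sex-determination family, follow as places 6 to 8, and then SMARCA2 and VLDLR. Which of these genes, if any, lie in the block was not determined.

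**Figure D2:**
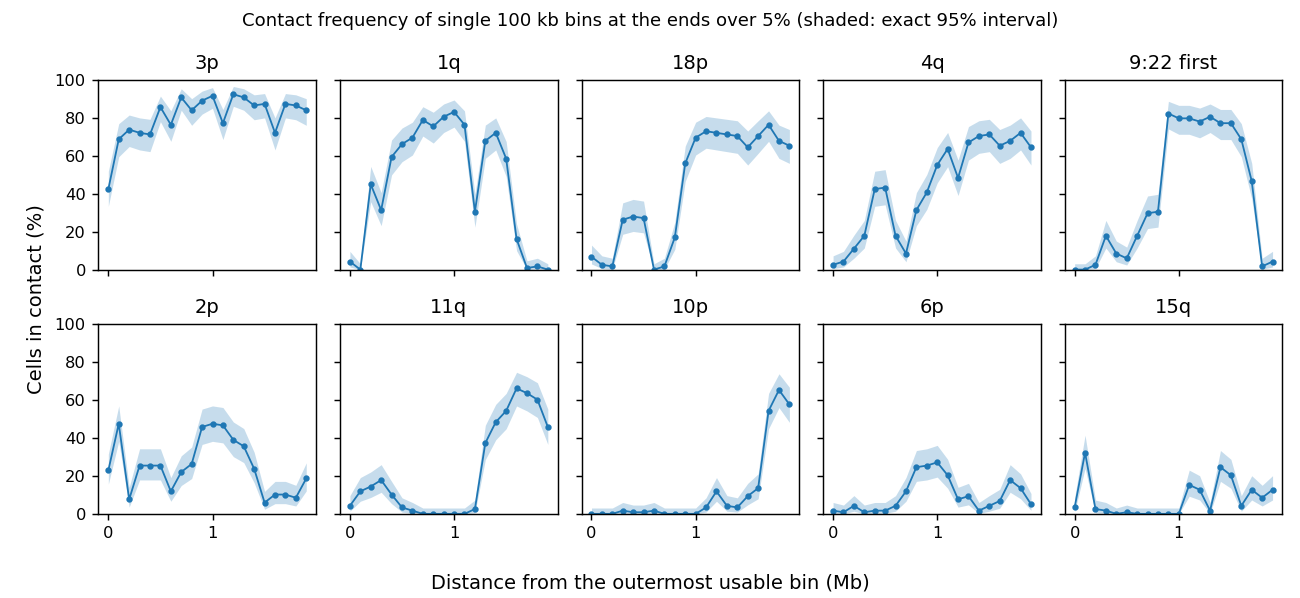
Contact frequency (% of 118 cells, vertical axis) of single 100 kb bins against distance from the outermost usable bin (Mb, horizontal axis) at the 10 ends over 5%, with shading for the exact 95% interval. The end of 3p is high throughout apart from its outermost bin at 42.4%, 1q and the first end of 9:22 hold islands that reach 83.1% and 82.2%, and 10p is in contact mainly in its 3 innermost bins, and 11q mainly in its inner bins with a weaker outer stretch that reaches 17.8%.

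The remaining 5 ends over 5% had lower and more uneven contact. The end of 2p had 25.3% ± 24.9 of its bins in contact, from 0 in 29 cells through a median of 20.0% to 95.0% in 2 cells. In percentage points it differed most between the sets of cells, with 19.9% in cells 1 to 94 and 42.7% in cells 96 to 124. Its contact had 2 peaks, the outer at chr2:100001-200000 with 56 cells (47.5%, 38.2 to 56.9) and the inner also reaching 56 cells, at chr2:1000001-1100000. From the outer peak to the next bin inward the frequency dropped to 7.63%, with 48 cells in contact in the outer bin alone and 1 in the inner bin alone. No bin of this end was bare, and the lowest was at 5.93%. Between the peaks, chr2:300001-400000 was at 25.4% and chr2:800001-900000 at 26.3%. Of the 6 highest ends it was the one where no bin exceeded 50% of cells.

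The end of 11q had 22.1% ± 17.2, from 0 in 27 cells through a median of 20.0% to 70.0% in cell 122. Cells 1 to 94 averaged 18.4% and cells 96 to 124 averaged 33.9%. Its outer bins reached 17.8%, the 5 bins from chr11:133800001-133900000 outward to chr11:134200001-134300000 had no contact in any cell, and the inner bins reached 66.1% (56.8 to 74.6) at chr11:133300001-133400000. The steepest rise was from chr11:133700001-133800000, at 2.54%, to the next bin inward, at 37.3%. There 42 cells were in contact in the inner bin alone and 1 in the outer bin alone. The end of 10p had 11.4% ± 10.1, from 0 in 29 cells through a median of 10.0% to 45.0% in 2 cells, and its 3 innermost bins were at 54.2%, 65.3% and 57.6% while no other bin exceeded 13.6%. Its share was 9.5% for cells 1 to 94 and 17.5% for cells 96 to 124. At the limit of 2 Mb the end of 10p therefore runs into a contacted stretch.

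The ends of 6p and 15q were the lowest of those over 5%. At 6p the share was 9.53% ± 15.4, from 0 in 66 cells, which is also the median, to 70.0% in cell 100. The highest bin was chr6:1100001-1200000, in contact in 32 cells (27.1%, 19.3 to 36.1). At 15q the share was 7.67% ± 10.8, from 0 in 56 cells through a median of 5.00% to 45.0% in 2 cells. Its highest bin, chr15:102300001-102400000, was the second from the end, in contact in 38 cells (32.2%, 23.9 to 41.4), whereas its neighbours were in contact in 4 and 3 cells. Both ends had over 2 times the share in cells 96 to 124, at 21.3% against 5.89% for 6p and 13.8% against 5.78% for 15q.

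At the 5 highest ends contact came as longer connected stretches in single cells than at the others over 5%. The ends are ranked by their share of bins in contact, and a larger share favours longer runs. Run length was not set against the share, so this contrast is not a separate trait. The longest run of consecutive usable bins in contact had a median of 1.2 Mb at 3p, 0.8 Mb at the first end of 9:22, 0.7 Mb at 1q, 0.65 Mb at 18p and 0.6 Mb at 4q. It was 0.3 Mb at 11q, 0.2 Mb at 2p and 10p, 0.1 Mb at 15q and 0 at 6p. At 3p, 28 cells had a run from the outermost bin over at least 1 Mb, and at 2p 2 cells did. At 1q, 18p, 4q and the first end of 9:22 no cell did. Correlation over cells between contacts of neighbouring bins, with each cell's overall share of bins in contact regressed out, averaged 0.32 (2p) to 0.45 (1q) at the ends over 5%. For bins over 1 Mb apart it averaged 0.06 (4q) to 0.16 (first end of 9:22) at 9 of them and 0.31 at 2p. Bins without contact in any cell were left out of these averages, which left 13 to 20 bins per end. The cells share depth, both sets of cells were pooled, and these correlations are a description over 118 cells.

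Some contact at all 6 highest ends was common, and contact over most of each was rare. At least 1 bin was in contact at all 6 of them in 74 cells. Counting instead those with over 50% of bins in contact, 5 cells had 0, 26 had 1, 24 had 2, 39 had 3, 12 had 4, 8 had 5 and 4 had 6. Over the 45 pairs of the 10 ends over 5%, the correlation of the shares over cells averaged 0.11 with the cell's overall share regressed out, from -0.15 (3p with the first end of 9:22) to 0.42 (11q with 6p), and 36 pairs were above 0. Without that step the average was 0.26. With the 2 to under 10 Mb beside it, also with the cell's overall share regressed out, each of these ends had an r between 0.29 (1q) and 0.71 (18p) and a rho between 0.31 (1q) and 0.68 (10p). For 8 of the 10 ends that r exceeded the one with any other of these ends. The exceptions were 6p and 15q, at 0.36 and 0.35 with their own 2 to under 10 Mb. Their r with each other was 0.37, and that of 6p with 11q was 0.42. These correlations use the same cells, whose reads also went with the shares, with r from 0.05 (10p) to 0.57 (11q). The part of depth in them was not tested.

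No chromosome had both ends over 5% in the mean of all cells, but this rests on the setting for chromosomes 6 and 18. In cells 96 to 124 both ends were over 5% on these 2, with 21.3% and 8.57% at 6p and 6q and 47.7% and 9.11% at 18p and 18q, and a contact value of 0.5 also put both ends of these 2 chromosomes over 5%. On chromosome 18 the same held after thinning to 50000 reads, with 5.32% at 18q, and without bins of low expected part, with 6.48%. With a window of 5 Mb, 6 chromosomes had both ends over 5%. In the mean of all cells, of the 16 chromosomes with both ends measured, 9 had a single end over 5% and 7 had neither. On chromosome 3 the first end exceeded the last, at 0.508%, in 118 of 118 cells. On chromosome 9:22 the first end was higher in 112 cells and the last in 0, and on chromosome 2 the first was higher in 89 and the last in 0. The high end was the last on chromosomes 1, 4 and 11, where it exceeded the first end in 105, 112 and 91 cells and was exceeded in 0. Among the 9 chromosomes with an end over 5% the ends were closest on chromosome 6, at 9.53% and 3.77%, with the first higher in 44 cells, the last in 22 and no difference in 52. On chromosome 18, 43.3% at the first end stood against 4.15% at the last, with 102 cells one way and 7 the other. On chromosome 10 the first end was higher in 89 cells and the last in 0.

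**Figure D3:**
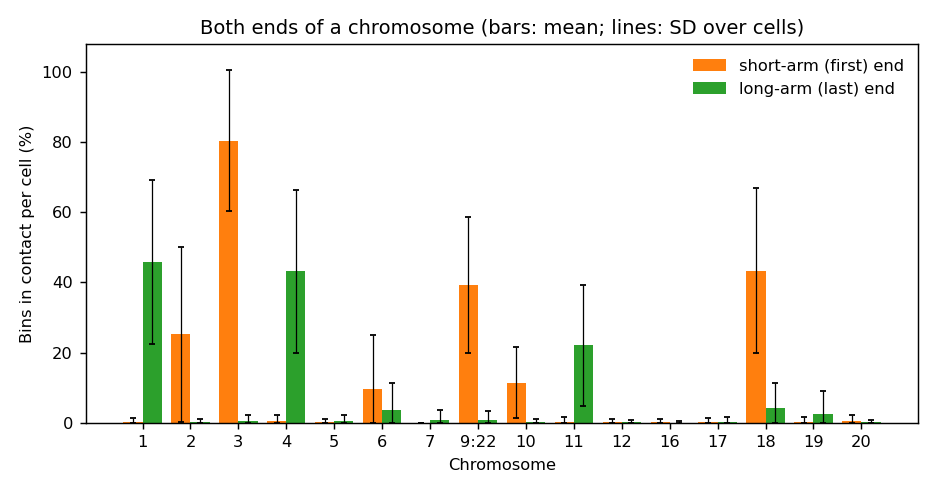
Mean share of bins in contact (%, vertical axis, from 0) at the first (orange) and last (green) end of the 16 chromosomes with both ends measured, with lines for the SD over 118 cells, cut at 0. On each of the 9 chromosomes with an end over 5% the other end is at most 4.15%.

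Whether both ends of a chromosome were in contact in the same cells could be described for 5 chromosomes, where each end had contact in at least 10 cells. With the cell's overall share regressed out, r was 0.36 on chromosome 6, 0.17 on 9:22, 0.11 on chromosome 4, -0.0031 on chromosome 3 and -0.06 on chromosome 18 (n = 118 cells each). Without the 2 cells farthest from the median, r on chromosome 6 was 0.24. Both sets of cells were pooled here, and 6p and 6q each had a higher share in cells 96 to 124. The mean r over the 5 chromosomes was 0.12. In cells 1 to 94 alone 2 chromosomes could be described, with a mean r of 0.04, and in cells 96 to 124 alone 2, with 0.21. The part of the difference between the sets was not tested. On chromosomes 3, 4 and 9:22 the rarer end had contact in 10, 15 and 13 cells, which leaves little to correlate.

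The 3 ends between 1% and 5% had their contact toward the inner limit. At 18q the share was 4.15% ± 7.23, with a highest bin of 20.3% at chr18:76200001-76300000, 1.8 Mb from the outermost usable bin. At 6q it was 3.77% ± 7.71, with a highest bin of 22.0% at chr6:169100001-169200000, also 1.8 Mb in. At 19q it was 2.42% ± 6.79, and 4 bins between 1.4 and 1.8 Mb reached 8.47% to 9.32%. For cells 1 to 94 against cells 96 to 124, the share was 2.61% and 9.11% at 18q, 2.28% and 8.57% at 6q, and 2.11% and 3.39% at 19q. At 18q and 6q, 42 cells each had any contact, and at 19q 18 cells did. The adjoining 2 to under 10 Mb had 54.0% at 18q and 44.5% at 6q and 0.413% at 19q, so 19q lies in a long stretch with hardly any contact.

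The 23 ends under 1% had next to none. The share was 0.932% at 7q, 0.890% at 14q and 0.805% at the last end of 9:22. It was 0.636% at 4p, 0.508% at 20p and at 3q, 0.381% at 5q, 0.339% at 11p and 0.312% at 19p. It was 0.212% at 1p, 0.178% at 17p, and 0.169% at each of 2q, 5p, 10q, 12p, 16p and 17q. These values have no order beyond their spread, since between 102 and 118 cells had no contact at each of these ends.

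The 6 lowest were 13q at 0.127%, 12q and 20q at 0.0847%, 16q at 0.0424%, and 21q and 7p at 0. At 13q, 3 cells had a single bin in contact, at 12q and 20q 2 cells did, and at 16q 1 cell did. No bin of these 6 ends was in contact in more than 2 cells, and no cell had over 5.00% of the bins of such an end in contact. At 7p and 21q none of the 2360 pairs of bin and cell was in contact, so that no cell of 118 had contact at either end. Reads were found there, and summed over the 20 bins they averaged 2.74 ± 5.32 per cell at 7p and 2.73 ± 5.04 at 21q, against 249.6 ± 126 at 3p. The adjoining 2 to under 10 Mb had 25.5% ± 8.48 at 7p and 4.69% ± 7.68 at 21q. FAM20C, PDGFA, a growth factor gene, and PRKAR1B, a kinase subunit gene, are among the outermost genes RefSeq lists for 7p, and PRMT2, PCNT, a centrosome gene, and COL6A2, a collagen gene, are among those for 21q.

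The few contacts at the ends under 1% were made of few reads. There were 166 over 458 bins and 118 cells, and 370 of the bins (80.8%) had none. Cells 96 to 124, which are 28 of the 118, held 98 of them (59.0%), with a mean share of 0.764% against 0.165% in cells 1 to 94. That set was already known for more signal in rarely contacted bins, so its excess here is only a description. Its median depth was 161506 reads, against 133746.5 in cells 1 to 94. A median of 4 reads stood behind each of the 166 contacts, and 56 (33.7%) had 1 or 2 reads. The 23 outermost bins, 5.02% of the bins, held 50 of the 166 contacts (30.1%). All 50 lay in the 18 outermost bins whose expected part was under 50% of that of the median bin. Such bins need fewer reads for a value of 1, and their part in the contacts was not tested. Without all bins of so low an expected part the share over these ends was 0.221%, against 0.307% with them. At 4p the outermost bin, chr4:1-100000, was in contact in 13 cells (11.0%, 6.00 to 18.1), with an expected part of 0.399 of the median bin, and 17 of the 20 bins there had no contact. At 14q a bin with an ordinary expected part, chr14:106900001-107000000, was in contact in 8 cells (6.78%).

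Contact changed with distance differently at the 2 kinds of end. At the 10 ends over 5%, the mean frequency was 17.6% in the outermost 0.5 Mb, 28.3% at 0.5 to 1 Mb, 44.9% at 1 to 1.5 Mb and 40.5% at 1.5 to 2 Mb, and it stayed between 32.5% and 46.1% out to 20 Mb. At the 26 ends at most 5% it was 0.683%, 0.156%, 0.456% and 1.39% over the same steps, 4.72% at 2 to 4 Mb, 18.1% at 4 to 6 Mb and 24.9% at 6 to 10 Mb. Within the 2 Mb these ends were chosen by their level, so that gap is a description. In the mean of the ends over 5% the outermost 0.5 Mb was the lowest of the 4 steps, also without bins of low expected part (20.1%). By end this held at 3p, 18p, 4q, the first end of 9:22 and 6p. The lowest step was 1.5 to 2 Mb at 1q (15.4%) and 2p (10.7%), and 0.5 to 1 Mb at 11q (1.02%) and 15q (0.169%). At 10p the 2 outer steps were equal, at 0.508%. At 10 to 20 Mb the means of both kinds of end were 32.5% and 28.6%. Over all 36 ends the bin just inside the 2 Mb limit had a mean frequency of 11.1% and the bin just outside 12.4%.

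**Figure D4:**
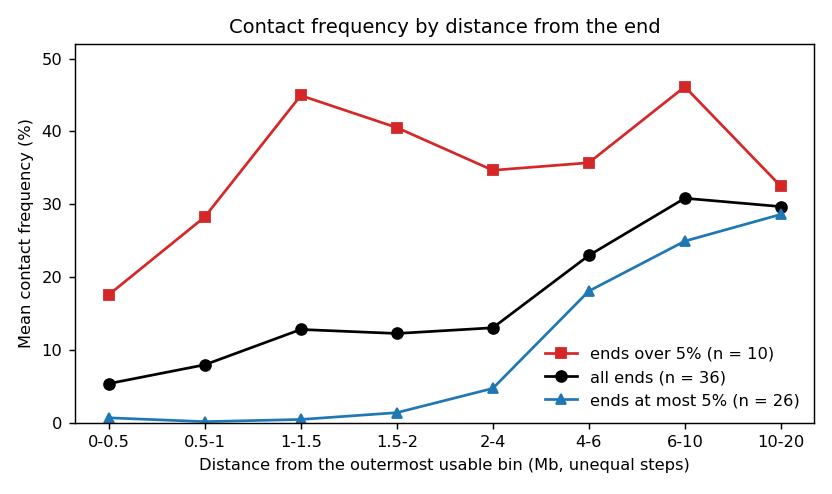
Mean contact frequency (%, vertical axis) by distance from the outermost usable bin (Mb, in unequal steps, horizontal axis) for the 10 ends over 5% (red squares), all 36 ends (black circles) and the 26 ends at most 5% (blue triangles). The ends at most 5% stay under 1.5% to 2 Mb and reach 18.1% at 4 to 6 Mb, whereas the ends over 5% go from 17.6% in the outermost 0.5 Mb to 44.9% at 1 to 1.5 Mb.

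How far the stretch without a bin in contact in at least 20% of cells reached differed greatly between the ends at most 5%. The first bin in contact in at least 20% of cells lay at a median of 5.25 Mb from the outermost usable bin, from 1.8 Mb at 6q and 18q to 47.9 Mb at 1p. It lay within 5 Mb at 12 of these 26 ends and beyond 10 Mb at 7. After 1p the longest stretches were 26.6 Mb at 19q and 20.3 Mb at 19p, and then 13.5 Mb at 12p, 10.7 Mb at 17q and 10.3 Mb at 4p and 17p. At 3q the change was abrupt, since the first such bin, chr3:193200001-193300000 at 4.6 Mb, was already at 80.5%. At 7p a bin at 33.1% was met at 3.3 Mb, so 7p had no contact in its end and contact soon after it.

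Sequence at the ends was described through the promoters of the 10 outermost named coding genes that RefSeq lists with a promoter. No limit of distance was set, so where genes are sparse the list can reach beyond the 2 Mb in which contact was measured. How many of these genes lie within the 2 Mb was not determined. The motif searched was CG, which reads the same on both strands, in the 250 bases before the gene start. At least 10 CG were found in 74 of 100 promoters (74.0%) at the ends over 5% and in 210 of 260 (80.8%) at the ends at most 5%, against 68.6% of 15843 promoters of all listed genes. The median was 21.5 CG and 25 CG at those 2 kinds of end, and 17 CG over all genes. The end of 1q had the lowest median of all, 2 CG, followed by 20p with 5.5 CG, where contact was 0.508%. Over the 36 ends, the median CG count and the mean contact frequency had r = -0.33 and rho = -0.21, and r = -0.13 without the 2 ends farthest from the median count. CG counts thus varied widely among ends of both kinds, and the relation over ends was weak.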

How the data were processed

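Single-cell DamID reads adenine methylation left by Dam-LaminB1 near the lamina, in 118 cells with 1 column each. The authors deposited 1 table of the ratio of observed to expected reads in 100 kb bins, a unit taken from its name and from the values. How the expected part was made is not described by the sources used here. Per the submitters' processing notes, cutadapt, Bowtie2 2.1.0 and build hg19 were used, with no settings given. An unfused Dam profile was not used here.

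Every deposited ratio came out as a whole number of reads times 2 fixed steps, 1 for each bin and 1 for each cell (100% of 1697706 values above 0, tolerance 0.02 reads), and those reads gave the depth. The step of a bin was chosen to make its values whole at that tolerance, so the 100% describes the fit and is not a separate check. The recovery was tested on data simulated with the recovered steps. Contact was a ratio of at least 1. Shares are means ± SD over cells, and exact Clopper-Pearson intervals (95%) and limits at 0 (3 counts) cover the counting of cells only. Every end has its mean stated, and the 6 highest and 6 lowest are described in full. Ends, limits and sets of cells were chosen with earlier results of these data known. No tests were made, because the labels give 1 group without replicates. Gene order and promoters came from RefSeq GRCh38.p14, 1 listed promoter per gene, and were not placed on bins. Other contact values, windows, cells, depth (50000 reads) and bins were tried. Python 3.11.15, numpy 2.4.6, pandas 2.3.3 and scipy 1.17.1 were used.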

Additional observations from a re-analysis of the deposited data

How the results depend on the processing

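The shares, differences and counts over the ends were recomputed with a contact value of 0.5 or 2, windows of 1 or 5 Mb, cells 1 to 94 or 96 to 124 alone, without the 14 cells under 3 reads per value of 1, after thinning to 50000 reads (109 cells), without the outermost bin, and without bins of low expected part. With a contact value of 0.5 the mean over ends was 14.0% and the end minus interior -25.7 percentage points. With a contact value of 2 they were 4.78% and -12.9, the end minus 2 to under 10 Mb was -8.55, and 1 end reached 33%. A window of 1 Mb left 2 ends at 33% or more, and a window of 5 Mb gave a mean of 13.2% and 16 ends at most 5%. By end, 15 of the 36 moved by more than the spread between cells with 5 Mb, 17 with a contact value of 0.5, 3 with 1 Mb, 3 after thinning and 2 with a contact value of 2. With 1 Mb the share was 16.7% at 18p, 19.5% at the first end of 9:22, 21.9% at 4q and 0.508% at 10p, and with 5 Mb it was 20.0% at 1q and 22.8% at 18q, as the contacted stretches there lie inside or outside the window. None of these differences changed sign, and the other 51 recomputed values kept to within the spread between cells or 1.5 times the count. At the ends under 1%, 33.7% of the contacts had 1 or 2 reads, and this share was not computed for the other ends. After thinning, 7p, 21q and 16q were at 0.275%, 0.0917% and 0.872%. With 1 group of cells of 1 clone and no named cultures, the spread does not tell how another culture would vary. Differences between ends, and between ends and other bins, were taken within cells, and no pairing of groups was possible with 1 group.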
